A study of Mus musculus with 22 samples.

Results

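The immediate early genes Fos, Fosb, Fosl1, Fosl2, Jun, Junb, Egr1, Klf6, Ier3 and Myc were followed in mouse liver across 2 genotypes and 2 diets. They were chosen by gene symbol, and each of the 10 symbols was matched by 1 row among the 24011 genes measured. Liver RNA came from 22 female C57BL/6J mice that were 12 weeks old, with 1 Affymetrix MoGene 2.0 ST array per mouse. WT_chow stands for wild type mice on regular chow (n = 5), WT_UDCA for wild type mice on chow with ursodeoxycholic acid (UDCA, n = 6), KO_chow for Cyp2c70 knockout mice on regular chow (n = 5) and KO_UDCA for Cyp2c70 knockout mice on UDCA (n = 6). UDCA is a hydrophilic bile acid, and mice got it as 0.1% of their food for 7 weeks, starting when they were 5 weeks old. Cyp2c70 encodes the cytochrome P450 that makes muricholic acids in the mouse, and the labels give the knockout only by gene and not by allele, deleted exon or cell type. The design text calls the mice of a group biological replicates, and the replicate numbers used here only name a mouse.

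Immediate early genes are transcribed within minutes of a stimulus, from factors that are already present in the cell, and their transcripts are short-lived. Fos family proteins pair with Jun family proteins to form AP-1, a leucine zipper factor that binds near genes of proliferation, matrix turnover and inflammation. In liver these genes are known for their response to partial hepatectomy, cholestasis and other injury, and also to handling of the tissue itself. The labels give no array batch, scan date or tissue handling time.

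All but Ier3 encode transcription factors. Ier3 (immediate early response 3, also called IEX-1) encodes a regulator of cell survival and kinase signalling and is not itself a DNA-binding factor. Egr1 and Klf6 are zinc finger factors and Myc is a basic helix-loop-helix factor. Levels are log2 of the array intensity, on which 1 unit is a 2-fold difference, and they depend on the probes, so levels of different genes are not set against each other.

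The arrays were alike in brightness, with median intensities of 28.8 to 31.1, and the targeted gene went with the labels. Albumin (Alb) measured 13.0 in each group. Cyp2c70 was lower in KO_chow than in WT_chow by 0.83 log2 (adjusted p = 3.20e-06) and lower in KO_UDCA than in WT_UDCA by 0.93 (adjusted p = 7.96e-06). Which part of Cyp2c70 was deleted and which part the probes read is not stated in the labels. On the first principal component, with 26.7% of the variance, KO_chow replicates 2 and 5 stood apart at 53.4 and 51.9, against 15.7 to 32.5 for the other 3 KO_chow mice. The counts and main differences that rest on KO_chow are therefore also given without these 2 mice.

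The sequences just upstream of Fos, Fosb, Fosl2, Jun, Klf6 and Ier3 are given to show where some known motifs stand. The RefSeq promoter table of GRCm38.p6 held 7 of the 10 genes and no entry for Fosl1, Egr1 or Myc. The 250 bases before the start of transcription are printed 5′ to 3′ on the gene's strand, and capitals mark matches to the motifs named in the next paragraph.
Fos, chr12:85473640-85473889, plus strand: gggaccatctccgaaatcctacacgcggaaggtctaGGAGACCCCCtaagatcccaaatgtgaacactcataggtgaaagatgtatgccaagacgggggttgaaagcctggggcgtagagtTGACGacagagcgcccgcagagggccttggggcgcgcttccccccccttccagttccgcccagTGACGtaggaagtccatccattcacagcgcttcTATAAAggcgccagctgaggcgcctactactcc
Fosb, chr7:19310046-19310295, minus strand: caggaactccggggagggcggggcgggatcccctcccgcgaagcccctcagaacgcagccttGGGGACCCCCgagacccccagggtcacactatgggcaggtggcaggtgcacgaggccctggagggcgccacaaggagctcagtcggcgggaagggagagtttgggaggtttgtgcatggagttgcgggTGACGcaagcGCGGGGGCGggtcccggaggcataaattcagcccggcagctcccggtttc
Fosl2, chr5:32136222-32136471, plus strand: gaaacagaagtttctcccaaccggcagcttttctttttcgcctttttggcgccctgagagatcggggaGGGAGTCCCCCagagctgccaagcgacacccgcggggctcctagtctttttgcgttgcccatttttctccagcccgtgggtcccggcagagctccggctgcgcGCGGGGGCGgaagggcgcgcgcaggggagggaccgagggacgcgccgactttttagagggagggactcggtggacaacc
Jun, chr4:95052223-95052472, minus strand: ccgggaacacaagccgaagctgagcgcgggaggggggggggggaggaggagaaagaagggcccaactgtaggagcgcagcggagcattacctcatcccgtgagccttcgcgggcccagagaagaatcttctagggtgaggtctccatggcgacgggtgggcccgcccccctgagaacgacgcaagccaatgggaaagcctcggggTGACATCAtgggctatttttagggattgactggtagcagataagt
Klf6, chr13:5861239-5861488, plus strand: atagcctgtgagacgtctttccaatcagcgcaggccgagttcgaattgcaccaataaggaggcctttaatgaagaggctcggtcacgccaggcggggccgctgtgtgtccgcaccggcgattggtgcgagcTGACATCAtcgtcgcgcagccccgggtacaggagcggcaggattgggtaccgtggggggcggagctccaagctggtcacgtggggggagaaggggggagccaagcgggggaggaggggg
Ier3, chr17:35821463-35821712, plus strand: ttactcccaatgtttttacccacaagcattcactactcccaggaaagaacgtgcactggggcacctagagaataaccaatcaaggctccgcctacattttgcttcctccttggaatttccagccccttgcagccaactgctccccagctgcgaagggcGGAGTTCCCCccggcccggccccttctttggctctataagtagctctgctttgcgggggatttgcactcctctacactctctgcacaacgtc

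The 8 motifs were chosen after the sequences had been seen, and both strands were searched. TGACG, the core of the cyclic AMP response element, stood 129 and 66 bases before the start of Fos, 60 before Fosb and 106 before Junb, which is not printed. It occurred in 17.8% of all 32851 promoters of the same length, and it is part of the full element TGACGTCA, which none of the 7 promoters held (1.55% of all). TGACATCA, a variant that Jun and ATF proteins are known to bind, stood 45 bases before Jun and 119 before Klf6 (2.93% of all). A kB site, the motif of NF-kB, stood 214 bases before Fos, 188 before Fosb, 182 before Fosl2 with an overlapping match, and 92 before Ier3 (7.25% of all). The EGR site GCGNGGGCG stood 50 bases before Fosb and 79 before Fosl2 (4.7% of all). TATAAA stood 33 bases before Fos (12.4% of all). The AP-1 site TGANTCA (6.75% of all) and the CArG box of serum response factor (1.47% of all) were in none of the 7 windows. Bases further upstream were not searched, so sites there would not be seen. The printed windows were rich in G and C, at 54.4% to 68.8%, against a median of 52.4% over all promoters.

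On average, these transcripts were highest in the livers of knockout mice on chow. The mean level of each of the 10 genes was highest in KO_chow, while the means of the other 3 groups lay within 0.45 log2 of each other for every gene. The rise from WT_chow to KO_chow passed the test for Ier3 (3.68-fold), Klf6 (3.11-fold), Fosl1 (3.10-fold), Fosb (2.13-fold) and Fosl2 (1.77-fold). The KO_chow mice did not share it evenly: in replicates 2, 3 and 5 the level of 9 of the 10 genes lay above every WT_chow mouse, in replicate 1 that of 4, and in replicate 4 that of 2. In bulk liver, fewer cells of a type and less RNA per cell cannot be told apart, nor can more cells and more RNA per cell.

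**Figure D1:**
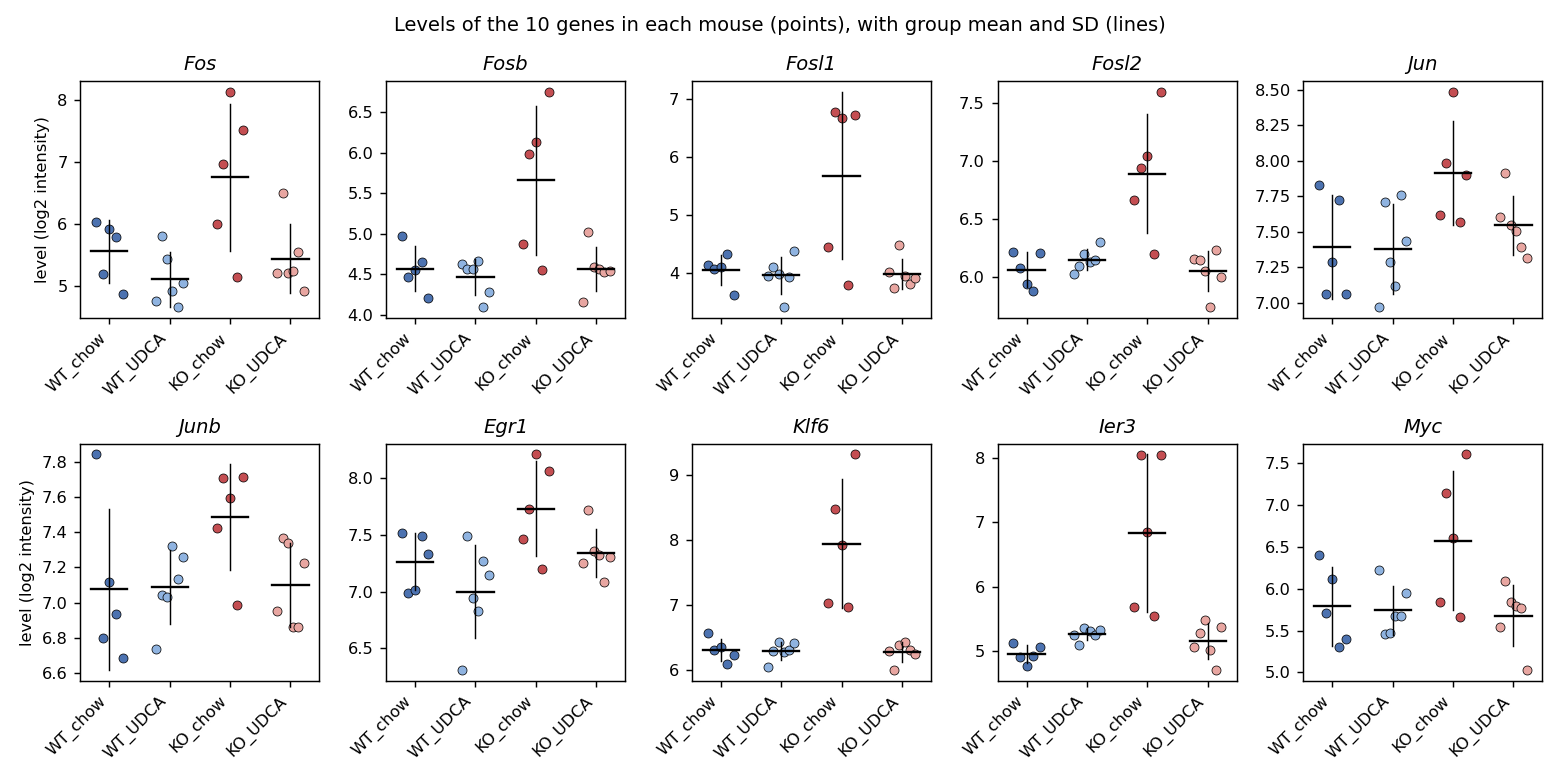
Level (log2 intensity) of each of the 10 genes in each of the 22 mice, with one panel and one vertical scale per gene. Points are mice, horizontal lines are group means and vertical lines are SDs (n = 5 or 6). In KO_chow the points spread widely for most genes, but about as in WT_chow for Jun and less than there for Junb. KO_chow replicate 4 is the lowest KO_chow point in all 10 panels.

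The first comparison, KO_chow against WT_chow, shows the effect of genotype on regular chow. A gene was called at a limma adjusted p below 0.05, adjusted over all 24011 genes. By that rule 5 of the 10 genes were higher and 0 were lower, against 7.69% of all genes higher and 6.03% lower. The median log2 difference of the 10 genes was 0.96, against -0.04 over all genes. All 10 genes were higher on average, each at an unadjusted p below 0.05, which 6133 of all 24011 genes passed in either direction. The groups did not overlap for 2 of the 10 genes, Klf6 and Ier3, against 5.45% of all genes non-overlapping in this direction. Without KO_chow replicates 2 and 5, 3 of the 10 were called (Fosl2, Klf6 and Ier3), against 1089 of all 24011 genes in either direction. The median difference of the 10 genes was then 0.59. Without replicate 4, all 10 were called, against 3849 of all genes, with a median difference of 1.19. Replicate 4 was the lowest KO_chow mouse for all 10 genes, so leaving it out had to raise each difference.

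Fos encodes c-Fos, the founding AP-1 subunit, which cannot bind DNA without a Jun partner. Its level was 6.03, 5.19, 5.92, 5.79 and 4.87 in WT_chow replicates 1 to 5, and 6.00, 6.97, 8.14, 5.15 and 7.52 in KO_chow replicates 1 to 5. In WT_UDCA it ran from 4.66 to 5.81 with a median of 4.99, and in KO_UDCA from 4.92 to 6.50 with a median of 5.23. KO_chow replicates 2, 3 and 5 lay above every mouse of the other groups, and replicates 1 and 4 lay among the WT_chow mice. KO_chow minus WT_chow was 1.20 log2 (SE 0.40, adjusted p = 0.0509) and did not pass the test. It passed without KO_chow replicate 1 (adjusted p = 0.0275). It was 1.60 without KO_chow replicate 4 (adjusted p = 0.00306) and 0.87 without replicates 2 and 5 (adjusted p = 0.366).

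Fosb encodes FosB, a close relative of c-Fos. It measured 4.97, 4.46, 4.55, 4.65 and 4.21 in WT_chow replicates 1 to 5, and 4.87, 5.99, 6.13, 4.55 and 6.75 in KO_chow replicates 1 to 5. In WT_UDCA it ran from 4.09 to 4.66 (median 4.57) and in KO_UDCA from 4.16 to 5.02 (median 4.55). As for Fos, KO_chow replicates 2, 3 and 5 stood above every other mouse and replicates 1 and 4 fell inside the WT_chow range. The level was above the array median in 3 KO_chow mice, 1 WT_chow mouse, 1 KO_UDCA mouse and 0 WT_UDCA mice, so most values outside KO_chow were below the array median. Fosb was thus higher in KO_chow by 1.09 log2 (SE 0.28, adjusted p = 0.0103). With KO_chow replicates 2 and 5 left out, the difference was 0.62 and no longer called (adjusted p = 0.206), and the call was also lost in a fit to only these groups (adjusted p = 0.0718).

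Fosl1 encodes Fra-1, which lacks the strong activation domain of c-Fos and is known to accumulate in migrating and transformed epithelial cells. It was 4.14, 4.06, 4.10, 4.32 and 3.61 in WT_chow replicates 1 to 5, and 4.44, 6.77, 6.67, 3.79 and 6.73 in KO_chow replicates 1 to 5. In WT_UDCA it ran from 3.40 to 4.38 (median 3.96) and in KO_UDCA from 3.74 to 4.47 (median 3.92). The KO_chow mice fell into 2 sets, with replicates 2, 3 and 5 close together and far above replicates 1 and 4. Outside KO_chow, 0 mice had Fosl1 above the array median, so its fold differences are not exact. Fosl1 was higher in KO_chow than in WT_chow by 1.63 log2 (SE 0.41, adjusted p = 0.00909), and by 0.92 without replicates 2 and 5 (adjusted p = 0.222). In a fit to only these groups the adjusted p was 0.0752.

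Fosl2 encodes Fra-2, another AP-1 subunit without the strong activation domain. Its levels were tight in wild type mice, at 6.22, 6.08, 5.94, 5.88 and 6.21 in WT_chow replicates 1 to 5. In KO_chow replicates 1 to 5 they were 6.66, 6.94, 7.04, 6.20 and 7.59. In WT_UDCA they ran from 6.03 to 6.30 (median 6.14) and in KO_UDCA from 5.75 to 6.23 (median 6.10). KO_chow replicate 4 was within the range of the controls, and the other 4 KO_chow mice were above every mouse of the other groups. On average KO_chow was 0.82 log2 higher than WT_chow (SE 0.16, adjusted p = 0.00125). It was called in all 17 alternative settings run, at 0.57 without KO_chow replicates 2 and 5 (adjusted p = 0.0215).

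Jun and Junb encode the partners of the Fos proteins; c-Jun is a strong activator and JunB is often a weaker one. Jun ran from 7.06 to 7.83 in WT_chow (median 7.29), from 6.97 to 7.76 in WT_UDCA (median 7.36), from 7.57 to 8.48 in KO_chow (median 7.90) and from 7.31 to 7.91 in KO_UDCA (median 7.52). Junb ran from 6.69 to 7.84 in WT_chow (median 6.94), from 6.74 to 7.32 in WT_UDCA (median 7.09), from 6.99 to 7.71 in KO_chow (median 7.59) and from 6.86 to 7.37 in KO_UDCA (median 7.09). The groups overlapped for both genes, and WT_chow replicate 1 had more Junb than any KO_chow mouse. KO_chow minus WT_chow was 0.52 log2 for Jun (SE 0.18, adjusted p = 0.0644) and 0.41 for Junb (SE 0.18, adjusted p = 0.147), and neither passed the test. Without WT_chow replicate 1 both passed, as they did without KO_chow replicate 4 (adjusted p = 0.0337 for Jun and 0.0438 for Junb). Jun also passed without WT_chow replicate 4 and without KO_chow replicate 1. Without KO_chow replicates 2 and 5 neither passed, at 0.50 for Jun (adjusted p = 0.253) and 0.26 for Junb (0.587). Neither passed in a fit to only these groups (adjusted p = 0.125 and 0.257).

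Egr1 encodes an early growth response factor induced by ERK signalling. It ran from 6.98 to 7.52 in WT_chow (median 7.33), from 6.31 to 7.49 in WT_UDCA (median 7.05), from 7.20 to 8.21 in KO_chow (median 7.73) and from 7.09 to 7.73 in KO_UDCA (median 7.31). All 4 groups overlapped. Egr1 was 0.47 log2 higher on average in KO_chow than in WT_chow (SE 0.20, adjusted p = 0.124), which did not pass the test. It passed only without KO_chow replicate 4, among 17 alternative settings (0.60, adjusted p = 0.0363). Without KO_chow replicates 2 and 5 the difference was 0.36 (adjusted p = 0.465).

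Klf6 encodes a Krüppel-like factor that is induced in injured epithelium and in activated hepatic stellate cells. It measured 6.56, 6.30, 6.35, 6.09 and 6.23 in WT_chow replicates 1 to 5, and 7.03, 8.48, 7.93, 6.96 and 9.32 in KO_chow replicates 1 to 5. In WT_UDCA it ran from 6.03 to 6.43 (median 6.30) and in KO_UDCA from 6.00 to 6.42 (median 6.29). The KO_chow mice did not overlap with any other group, replicate 4 included. Klf6 rose by 1.64 log2 from WT_chow to KO_chow (SE 0.28, adjusted p = 3.42e-04), and it was called in all 17 alternative settings. It was 1.0 without KO_chow replicates 2 and 5 (adjusted p = 6.20e-04).

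Ier3 measured 5.12, 4.90, 4.77, 4.91 and 5.07 in WT_chow replicates 1 to 5, and 5.68, 8.05, 6.85, 5.54 and 8.06 in KO_chow replicates 1 to 5. In WT_UDCA it ran from 5.09 to 5.36 (median 5.28) and in KO_UDCA from 4.71 to 5.48 (median 5.17). Here too each KO_chow mouse lay above every mouse of the other groups, by little in replicates 1 and 4. The level was near the array median in WT_chow, above it in 3 of the 5 mice. Ier3 rose by 1.88 log2 from WT_chow to KO_chow (SE 0.34, adjusted p = 6.27e-04), the largest difference of the 10 genes. It was called in all 17 alternative settings, at 1.07 without KO_chow replicates 2 and 5 (adjusted p = 0.00334).

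Myc encodes c-Myc, which drives ribosome production and cell growth. It was 6.40, 5.71, 6.12, 5.30 and 5.40 in WT_chow replicates 1 to 5, and 5.84, 7.15, 6.61, 5.66 and 7.60 in KO_chow replicates 1 to 5. In WT_UDCA it ran from 5.46 to 6.22 (median 5.67) and in KO_UDCA from 5.03 to 6.09 (median 5.78). KO_chow replicates 2, 3 and 5 were above every other mouse, and replicates 1 and 4 were inside the WT_chow range. Its difference, KO_chow minus WT_chow, was 0.78 log2 (SE 0.29, adjusted p = 0.0788) and did not pass the test. It also passed without WT_chow replicate 1 and without KO_chow replicate 1. It was 1.01 without KO_chow replicate 4 (adjusted p = 0.015) and 0.25 without replicates 2 and 5 (adjusted p = 0.695).

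The second comparison, KO_UDCA against KO_chow, shows the effect of the diet within the knockout. Of the 10 genes, 7 were lower and 0 higher, against 6.22% of all genes lower and 5.03% higher. The median log2 difference was -0.99, against 0.03 over all genes. With KO_chow replicates 2 and 5 left out, 3 of the 10 were lower (Fosl2, Klf6 and Ier3). In that fit 673 of all 24011 genes were called in either direction, and the median of the 10 genes was -0.60. Levels in KO_UDCA did not overlap with those in KO_chow for Klf6 and Ier3, against 3.27% of all genes non-overlapping in this direction. This comparison shares the KO_chow mice with the one above, so a KO_chow mouse that is high enters both.

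**Figure D2:**
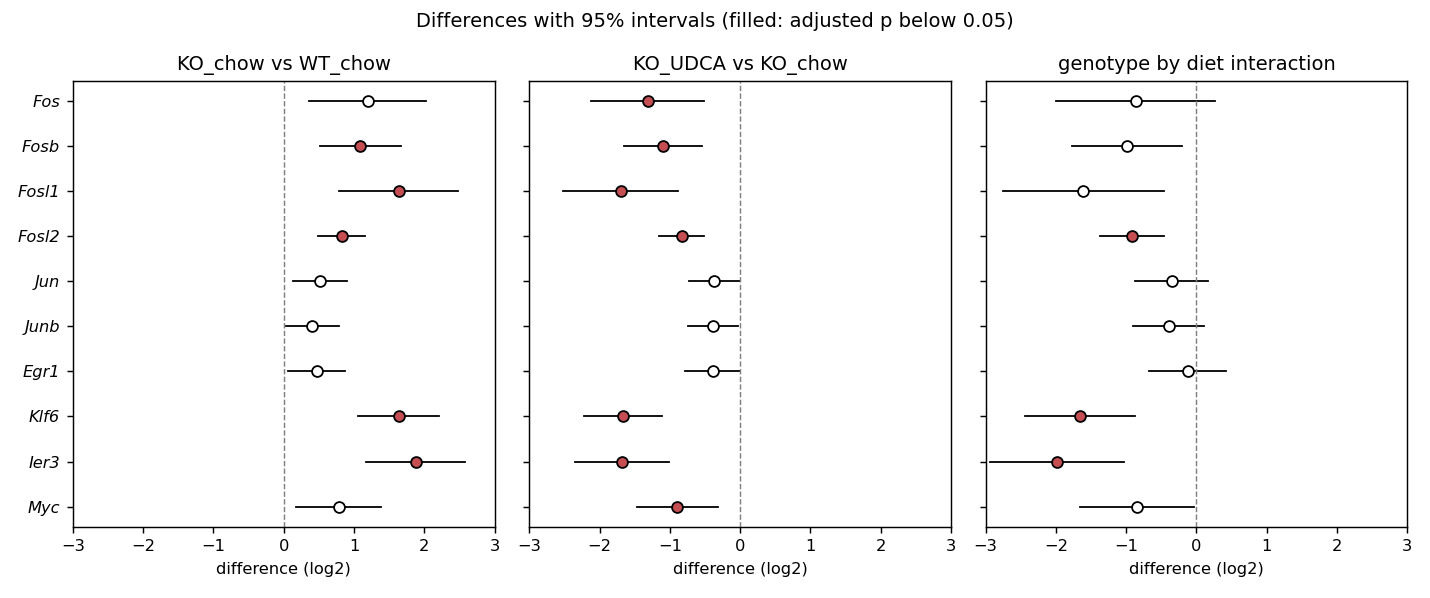
Differences in level (log2) for each of the 10 genes in KO_chow vs WT_chow, KO_UDCA vs KO_chow and the genotype by diet interaction, with 95% intervals from the limma fit. Filled points passed an adjusted p below 0.05: 5 genes in the first panel, 7 in the second and 3 in the third.

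Among the Fos family, the fall from KO_chow to KO_UDCA was 1.32 log2 for Fos (2.49-fold, SE 0.39, adjusted p = 0.0285), 1.09 for Fosb (2.13-fold, SE 0.27, adjusted p = 0.00934), 1.70 for Fosl1 (3.25-fold, SE 0.39, adjusted p = 0.0063) and 0.83 for Fosl2 (1.78-fold, SE 0.15, adjusted p = 0.00104). KO_UDCA replicate 2, at 6.50, had more Fos than KO_chow replicates 1 and 4, while all 6 KO_UDCA mice lay below KO_chow replicates 2, 3 and 5 for each of these 4 genes. Without KO_chow replicates 2 and 5 the call held for Fosl2 (adjusted p = 0.022) and was lost for Fos (0.294), Fosb (0.213) and Fosl1 (0.192). A fit to only these groups likewise called Fosl2 (adjusted p = 0.0222) and not Fos (0.0947), Fosb (0.0613) or Fosl1 (0.055). The call of Fos was lost in 9 of 18 alternative settings, including each one that left out KO_chow replicate 2, 3 or 5 or KO_UDCA replicate 1, 3, 4 or 6 (highest adjusted p of these, 0.101).

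The differences of the Jun genes and of Egr1 did not pass this test. KO_UDCA minus KO_chow was -0.37 log2 for Jun (SE 0.18, adjusted p = 0.207), -0.38 for Junb (SE 0.17, adjusted p = 0.169) and -0.39 for Egr1 (SE 0.19, adjusted p = 0.201). None of these 3 genes was called in any of the 18 alternative settings. All 3 had unadjusted p-values below 0.05, as did 5747 of all 24011 genes.

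Klf6 fell by 1.67 log2 (3.18-fold, SE 0.27, adjusted p = 2.32e-04) and Ier3 fell by 1.68 (3.20-fold, SE 0.33, adjusted p = 0.00152) from KO_chow to KO_UDCA. Both calls held in all 18 alternative settings. Without KO_chow replicates 2 and 5 the difference was -1.03 for Klf6 (adjusted p = 5.40e-04) and -0.87 for Ier3 (adjusted p = 0.0198). Myc fell by 0.89 (1.86-fold, SE 0.28, adjusted p = 0.0402), and that call was lost in 11 of 18 settings, among them the one without KO_chow replicates 2 and 5 (-0.36, adjusted p = 0.548) and those that left out KO_chow replicate 2, 3 or 5 or KO_UDCA replicate 1, 3, 4, 5 or 6 (highest adjusted p of these, 0.156).

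Knockout mice on UDCA were then set against both wild type groups. Between KO_UDCA and WT_UDCA, limma called 0 of the 10 genes, against 0.0167% of all genes. The differences ran from -0.11 log2 for Ier3 to 0.34 for Egr1, whose unadjusted p of 0.0673 was the smallest (adjusted p = 0.914). Between KO_UDCA and WT_chow, limma called 0 of 10, against 0.025% of all genes, and the differences ran from -0.12 for Fos to 0.20 for Ier3 (smallest adjusted p = 0.977). At an unadjusted p below 0.05, 0 of the 10 genes passed in either comparison, against 1308 and 1349 of all 24011 genes. These results do not show that the levels are equal: the 95% interval reached from -0.43 to 1.09 log2 for Fos and from -0.03 to 0.71 for Egr1 in KO_UDCA minus WT_UDCA, and from -0.54 to 0.51 for Klf6.

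UDCA in wild type mice gave 0 called genes among the 10 and 0% among all genes by limma. WT_UDCA minus WT_chow ran from -0.45 log2 for Fos (SE 0.39, adjusted p = 0.957) to 0.31 for Ier3 (SE 0.33, adjusted p = 0.965). For Ier3 the groups met at WT_chow replicate 1, whose 5.12 lay above the lowest WT_UDCA mouse at 5.09. At an unadjusted p below 0.05, 0 of the 10 genes and 1338 of all genes passed. The interval for Fos, from -1.25 to 0.35, leaves room for a fall of more than 2-fold.

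The genotype by diet interaction asks whether UDCA moved a gene by a different amount in the knockout than in the wild type. It passed the test for 3 of the 10 genes, all with a negative interaction, the UDCA effect in the knockout minus that in the wild type, against 2.07% of all genes in that direction. The interaction was -1.99 log2 for Ier3 (SE 0.46, adjusted p = 0.022), -1.65 for Klf6 (SE 0.38, adjusted p = 0.0196) and -0.92 for Fosl2 (SE 0.22, adjusted p = 0.0252). It did not pass for Fosl1 (-1.61, adjusted p = 0.129), Fosb (-0.99, adjusted p = 0.174), Myc (-0.85, adjusted p = 0.288) or Fos (-0.86, adjusted p = 0.475). For Junb, Jun and Egr1 it was -0.40, -0.35 and -0.13 (adjusted p = 0.457, 0.537 and 0.883). Leaving out KO_chow replicate 2 ended the calls of Klf6 (adjusted p = 0.0513) and Fosl2 (0.0528) and left that of Ier3 in place. Leaving out WT_chow replicate 4 also ended that of Fosl2 (adjusted p = 0.0521), as did leaving out KO_chow replicates 2 and 5 (0.099).

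The spread among KO_chow mice was large. The SD in KO_chow was 1.00 log2 for Klf6, 1.22 for Ier3 and 0.51 for Fosl2, at the 99.6th, 99.8th and 96.5th percentile of all genes in that group. In WT_chow it was 0.17, 0.14 and 0.15, at the 52.1st, 36th and 42.7th percentile, near or below the middle of all genes. Fos, Jun, Junb and Myc differed from them in already having a high spread in WT_chow, at SDs of 0.50, 0.36, 0.46 and 0.47 (98.2nd, 93.9th, 97.4th and 97.7th percentile). The limma fit shares 1 variance among the 4 groups, so for genes that are more spread in KO_chow its SEs and p-values may be too small in comparisons with KO_chow.

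**Figure D3:**
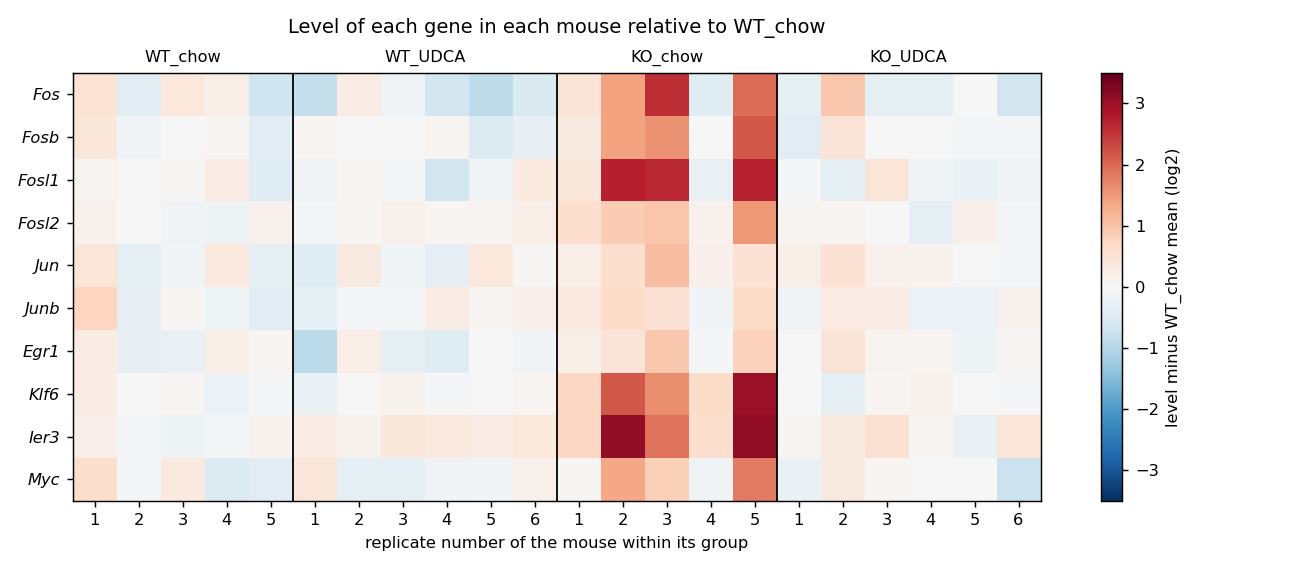
Level of each of the 10 genes (rows) in each mouse (columns, by group and replicate number) minus the WT_chow mean of that gene (log2, colour). KO_chow replicates 2, 3 and 5 are high for most genes, while KO_chow replicate 4 is inside the WT_chow range for 8 of them.

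The same mice stood high or low for many of the genes. Averaged over the 10 genes, the level minus the WT_chow mean was 0.40, 1.48, 1.46, 0.06 and 1.82 log2 in KO_chow replicates 1 to 5. It ran from -0.24 to 0.36 in WT_chow, from -0.22 to 0.06 in WT_UDCA and from -0.12 to 0.28 in KO_UDCA. KO_chow replicate 4 was the lowest KO_chow mouse for all 10 genes. Replicate 5 was the highest for 6 of them, replicate 3 for Fos, Jun and Egr1, and replicate 2 for Fosl1. In WT_chow, replicate 1 was the highest for 9 of the 10 genes, and in KO_UDCA, replicate 2 was the highest for 6.

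Deviations from the group mean were correlated between the genes, which is given as a description because the 10 genes share the same 22 arrays. Over all 22 mice, all 45 pairs had a Pearson r above 0, from 0.24 to 0.89 with a median of 0.58. The closest pairs were Klf6 with Ier3 (0.89), Jun with Egr1 (0.84) and Fos with Fosb (0.82). Over the 17 mice outside KO_chow the median was 0.17, and 37 of the 45 pairs were above 0. In these mice Jun with Egr1 (0.83), Fos with Fosb (0.69) and Fos with Jun (0.62) still varied together, whereas Klf6 with Ier3 did so little (0.06).

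**Figure D4:**
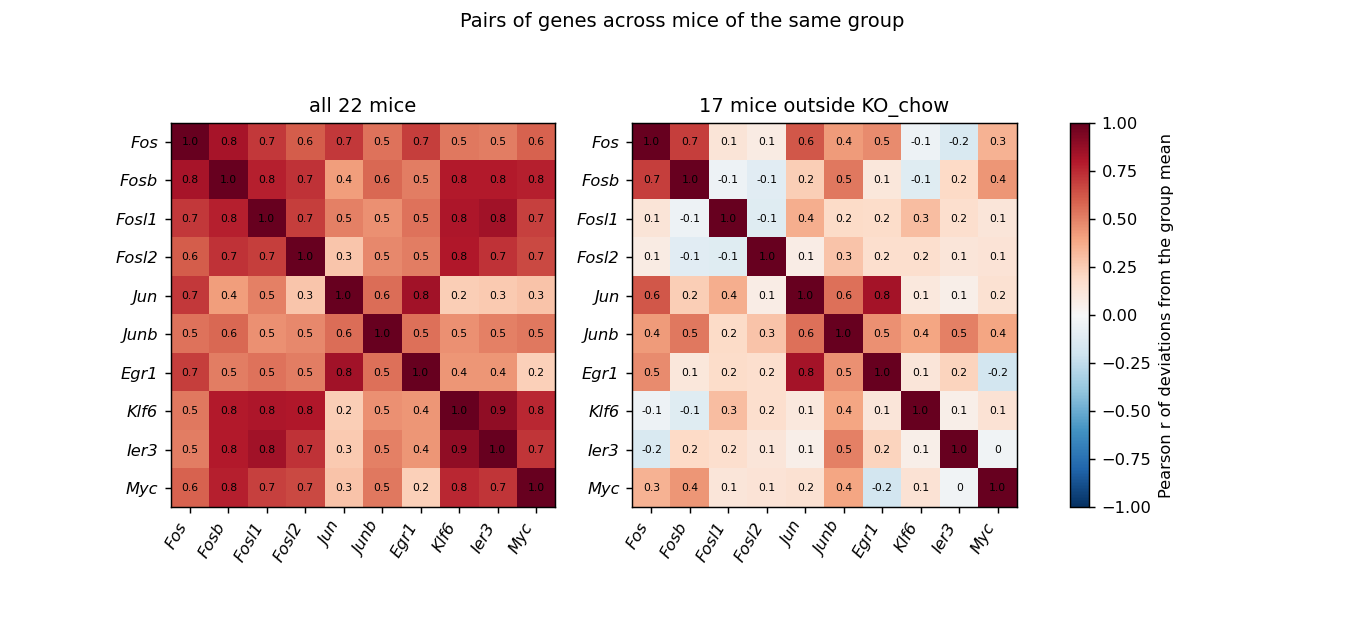
Pearson r of deviations from the group mean for each pair of the 10 genes, over all 22 mice (left) and over the 17 mice outside KO_chow (right). The block of Fosl1, Fosl2, Klf6, Ier3 and Myc is strong on the left and pale on the right, while Fos with Fosb, Fos with Jun and Jun with Egr1 are strong in both.

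The genes with the pattern most like each called gene, by Pearson r over 22 arrays, were looked up among all named genes. They are descriptions, since any gene high in the same KO_chow mice scores highly. Klf6 was most like Nrg1 (a growth factor of the EGF family, r = 0.98), Dusp5 (a phosphatase of nuclear ERK, 0.98) and Krt8 (a keratin of simple epithelium, 0.97). Ier3 was most like Mybl1 (0.98), Lamc1 (a laminin chain, 0.97) and Haus8 (0.97). Fosl1 was most like F13a1 (a coagulation factor subunit found in macrophages, 0.96) and Tnfrsf12a (the TWEAK receptor, 0.96). Fosb and Fosl2 were most like Hbegf (a ligand of the EGF receptor, 0.95 and 0.94). Fos was most like Atf3 (a stress-induced AP-1 partner, 0.89), and Myc was most like Egr2 (0.88).

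The rest of the pathway was read from 8 gene lists, which were chosen with earlier results of these data known. Some genes stand in more than 1 list, so the counts of different lists are not independent. Egr2 is in the lists of other immediate early genes and of EGR relatives. Lgals3 is an AP-1 target and a macrophage marker, and Hgf is an upstream ligand and a stellate cell marker. Over all genes, 7.69% were higher and 6.03% lower in KO_chow than in WT_chow. In KO_UDCA relative to KO_chow, 6.22% of all genes were lower and 5.03% higher. These shares are for the fit with all mice. Without KO_chow replicates 2 and 5, 1089 of all 24011 genes were called in KO_chow vs WT_chow, in either direction. In KO_UDCA vs KO_chow it was 673. Upstream signals come first: of 29 measured ligands, receptors, kinases and the transcription factors they activate (such as Srf, Rela and Stat3), 10 were higher in KO_chow than in WT_chow and 1 was lower (median difference 0.16, against -0.04 over all genes). The EGF receptor ligands Hbegf, Ereg and Btc rose by 1.35, 1.08 and 1.08 log2 (adjusted p = 9.97e-04, 7.34e-05 and 6.64e-05). Ereg ran from 4.62 to 4.92 in WT_chow and from 5.36 to 6.38 in KO_chow, without overlap. In WT_chow, Ereg was above the array median in 1 of 5 mice and Btc in 2, so the sizes of their rises are not exact. In KO_UDCA, 7 of the 29 were lower than in KO_chow and 0 higher. The counts without KO_chow replicates 2 and 5 were 6 higher and 0 lower in KO_chow than in WT_chow, and 6 lower and 0 higher in KO_UDCA than in KO_chow. With all mice kept, Hbegf, Ereg and Btc fell by 1.49, 1.00 and 1.16 from KO_chow to KO_UDCA.

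Among 40 other immediate early genes, 12 were higher in KO_chow than in WT_chow and 0 lower, with a median of 0.24. The largest rises were those of Dusp5 (2.03 log2, adjusted p = 7.86e-04), Ccn1 (a matrix protein induced by stretch and serum, 1.21, adjusted p = 0.00361) and Nr4a1 (an orphan nuclear receptor, 1.20, adjusted p = 0.0155). KO_UDCA was lower than KO_chow for 12 of the 40 and higher for 0. Dusp5, Ccn1 and Nr4a1 fell by 1.89, 1.37 and 1.40. With KO_chow replicates 2 and 5 left out, 6 of the 40 were higher in KO_chow than in WT_chow and 6 were lower in KO_UDCA than in KO_chow. In the first of these comparisons the calls of Ccn1 (adjusted p = 0.105) and Nr4a1 (adjusted p = 0.087) were lost. Nr4a1 also lost its call with 1 mouse left out in 3 of 10 settings. Like the 10 genes, this list was lowest in KO_chow replicate 4, whose list mean was 0 relative to WT_chow.

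Of 15 measured AP-1 partners and related leucine zipper factors, 2 were higher in KO_chow than in WT_chow and 0 lower (median 0.16). They were Atf3 (1.28 log2, adjusted p = 0.00123) and Jund (0.54, adjusted p = 0.0205), the Jun family member that is present in resting cells. In KO_UDCA, 3 of the 15 were lower than in KO_chow, with a fall of 1.42 for Atf3 and 0.52 for Jund. Leaving out KO_chow replicates 2 and 5, 1 of the 15 was higher in the first comparison and 1 lower in the second. The KO_chow vs WT_chow call of Jund did not hold with KO_chow replicates 2 and 5 left out (adjusted p = 0.321), nor in 4 of 10 settings with 1 mouse left out.

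The textbook AP-1 target genes showed the largest differences of the 8 lists. Of 20 measured, 13 were higher in KO_chow than in WT_chow and 0 lower, with a median of 1.11 log2. Sprr1a (a squamous epithelial envelope protein) rose by 5.35 log2, Mmp12 (macrophage elastase) by 4.99 and Mmp13 (a collagenase) by 2.95, with adjusted p at most 2.84e-06. In WT_chow, Sprr1a and Mmp13 were above the array median in 0 of 5 mice and Mmp12 in 2, so the sizes of these rises are not exact. KO_UDCA was lower than KO_chow for 15 of 20 and higher for 0, with a median of -1.03. Without KO_chow replicates 2 and 5 the counts were 11 of 20 higher and 10 of 20 lower. Of all 24011 genes, 1089 and 673 were then called in these comparisons, in either direction. The list mean relative to WT_chow was 0.82, 2.18, 1.70, 0.72 and 2.19 in KO_chow replicates 1 to 5. Replicate 4 was thus the lowest KO_chow mouse for these targets too, though above the WT_chow range of -0.06 to 0.05. Its 10 immediate early genes averaged 0.06. Any link between the targets and the 10 genes was not tested.

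Of the 20 textbook MYC targets, 10 were higher in KO_chow than in WT_chow and 0 lower, with a median of 0.33. Cad (pyrimidine synthesis) rose by 0.68 log2 (adjusted p = 1.06e-04), Nop56 by 0.68 (adjusted p = 0.0134) and Nop58 by 0.64 (adjusted p = 0.00666), the last 2 being parts of the small nucleolar ribonucleoprotein. With KO_chow replicates 2 and 5 left out, 2 of the 20 were called, and Nop56 (adjusted p = 0.283) and Nop58 (0.142) were not. Nop56 also lost its call in 2 of 10 settings that left out 1 mouse. KO_UDCA was lower than KO_chow for 6 of the 20, and for 1 with KO_chow replicates 2 and 5 left out or in a fit to only these groups. In the MYC network of partners and antagonists, 1 of 12 was higher and 2 lower in KO_chow, against 7.69% and 6.03% of all genes. Max, the partner that Myc needs to bind DNA, rose by 0.41 (adjusted p = 0.00122). Mlxipl, the carbohydrate response factor ChREBP, and Mxi1, an antagonist of Myc, fell by 0.68 and 0.31 (adjusted p = 0.0111 and 0.0192). The calls of Mlxipl (adjusted p = 0.237) and Mxi1 (0.227) did not hold with KO_chow replicates 2 and 5 left out. In KO_UDCA relative to KO_chow, 4 of the 12 were higher and 0 lower, among them Mlxipl (0.57) and Mxi1 (0.28), and 0 were called with those mice left out.

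Relatives of Klf6 and Egr1 were read in the same way. Of 16 other Krüppel-like factors, 1 was higher in KO_chow than in WT_chow and 4 were lower, against 7.69% and 6.03% of all genes. Klf5, a factor of proliferating epithelium, rose by 0.96 log2 (adjusted p = 1.57e-04), and Klf12 and Klf15 fell by 0.56 each (adjusted p = 0.0223 and 0.0444), calls that did not hold with KO_chow replicates 2 and 5 left out (adjusted p = 0.314 and 0.374), nor in 3 and 6 of 10 settings with 1 mouse left out. Of the 6 measured EGR relatives and NAB corepressors, Egr2 was higher (0.93, adjusted p = 0.002) and 0 were lower. Egr2 is also counted among the 40 other immediate early genes. It was above the array median in 0 of 5 WT_chow mice, so the size of its rise is not exact. In KO_UDCA relative to KO_chow, 3 of the 16 Krüppel-like factors were higher and 1 was lower, against 5.03% and 6.22% of all genes. Klf12 (0.49) and Klf15 (0.63) were among the higher ones, and Klf5 fell by 0.68. Egr2 fell by 0.84. Once KO_chow replicates 2 and 5 were left out, 1 Krüppel-like factor was higher and 0 lower in KO_chow than in WT_chow, and 0 were called in KO_UDCA relative to KO_chow. Without these mice, Egr2 was not called in either comparison (adjusted p = 0.0575 and 0.133), and the fall of Klf5 was not called (0.087).

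**Figure D5:**
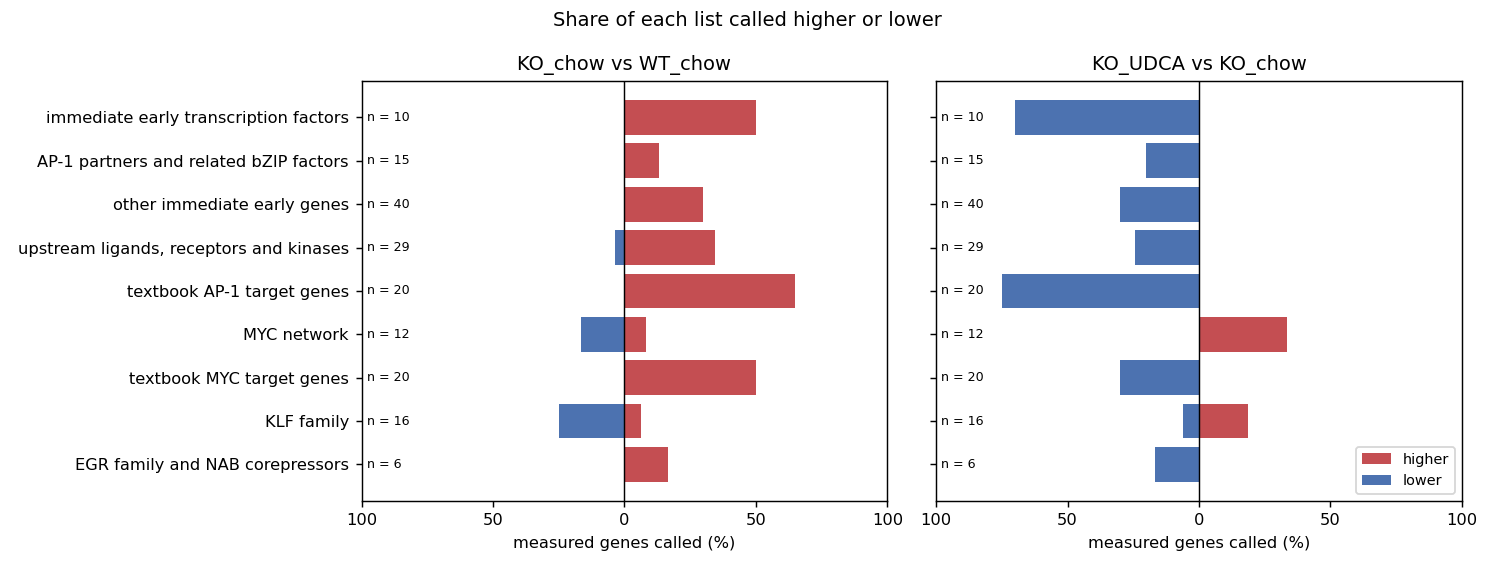
Share of the measured genes of each list (%) called higher (red, to the right) or lower (blue, to the left) in KO_chow vs WT_chow (left panel) and KO_UDCA vs KO_chow (right panel). The AP-1 targets have the longest bar in both panels, and on the left the 10 immediate early genes and the MYC targets tie, with 5 of 10 and 10 of 20 higher. There are 13 of 20 AP-1 targets higher on the left and 15 of 20 lower on the right.

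Markers of several cell types moved with the same groups. Over all genes, 7.69% were higher and 6.03% lower in KO_chow than in WT_chow. Without KO_chow replicates 2 and 5, 1089 of all 24011 genes were called in that comparison, in either direction. In KO_chow relative to WT_chow, 10 of 11 measured cholangiocyte markers were higher and 0 lower, 10 of 11 markers of monocyte-derived macrophages were higher and 0 lower, 6 of 8 neutrophil markers were higher and 0 lower, and 4 of 9 stellate cell markers were higher and 0 lower. Kupffer cell markers went the other way, with 1 of 8 higher and 5 lower. Hepatocyte markers had 0 of 8 higher and 1 lower, and endothelial markers 1 of 8 higher and 2 lower. With KO_chow replicates 2 and 5 left out, 9 of 11 cholangiocyte, 9 of 11 macrophage, 1 of 8 neutrophil and 4 of 9 stellate cell markers were higher, 4 of 8 Kupffer cell markers were lower and 1 higher, and 0 hepatocyte or endothelial markers were called. Krt19, Cftr, Tspan8 and Cldn7 were below the array median in every WT_chow mouse, as were Gpnmb, Itgax and Ccr2 and 7 of the 8 neutrophil markers.

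Mouse by mouse, the mean of the macrophage list relative to WT_chow was 0.99, 2.28, 1.38, 1.05 and 1.84 log2 in KO_chow replicates 1 to 5, and the mean of the neutrophil list was 0.29, 0.98, 0.75, 0.19 and 0.82. Both were higher in replicates 2, 3 and 5, the mice with the highest levels of the 10 genes, than in replicates 1 and 4. The mean of the cholangiocyte list was 1.38, 1.62, 0.99, 1.16 and 1.34, with its lowest value in replicate 3, where Fos, Jun and Egr1 were highest. In KO_UDCA the list means ran from 0.06 to 0.24 for macrophages, from -0.06 to 0.20 for neutrophils and from 0.06 to 0.49 for cholangiocytes. The part of these cell types in the levels of the 10 genes was not tested.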

How the data were processed

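Per the labels, the authors deposited RMA intensity values on the unlogged scale, 1 per gene and array, and the submitters' processing notes name RMA. The sources used here name no genome build. Of 24973 rows, 24015 had 1 gene symbol and 958 had none and were not used; 23922 were matched by gene identifier to RefSeq (GRCm38.p6), used for names and promoters only. Where a symbol had several rows (4 symbols), the brightest on average was kept, leaving 24011 genes.

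Intensities were converted to log2 with no pseudocount and no filter. The 4 group means were estimated from all 22 arrays in 1 linear model with shared variances, using limma (3.58.1), R (4.3.3) and data.table (1.17.8). P-values are two-sided, with Benjamini-Hochberg adjustment over 24011 genes and a threshold of 0.05. SE is the standard error of the fit, and intervals are 95%. The number of arrays limits the precision. The fit was tested on simulated data that had the same spread in all 4 groups. That test does not cover the wider spread in KO_chow.

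The 10 genes and the lists were chosen with earlier results of these data known. The naming rule took all 10 genes, up to 3 genes per pathway list with the largest called change from WT_chow to KO_chow, the 3 genes most like each called gene, and Cyp2c70 and Alb. Of 232 listed genes, 10 matched no row. The alternatives were a fit to only the groups compared, a filter on dim genes (above the array median in at least 5 arrays), a pseudocount of 16, quantile normalization, an intensity trend with robust variances, the 2 runs of sample title numbers as a term, leaving out KO_chow replicates 2 and 5 and leaving out each mouse. For the pathway lists, 3 of these were added after the data were seen.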

Additional observations from a re-analysis of the deposited data

Results flagged for a closer look

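One mouse stood far from its group: KO_UDCA replicate 3 had a Fosl1 level of 4.47, with the nearest KO_UDCA mouse at 4.01. This was 1 of 40 sets of 1 gene in 1 group, and chance alone would give about 1 in 20. The level was below the array median.

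The response to UDCA differed between genotypes by the interaction term for 3 of the 10 genes: -1.99 log2 for Ier3, -1.65 for Klf6 and -0.92 for Fosl2. Each is the UDCA effect in the knockout minus that in the wild type.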

How the results depend on the processing

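In KO_chow vs WT_chow, 5 of the 10 genes were called, 3 in a fit to only these groups and 3 without KO_chow replicates 2 and 5 (Fosl2, Klf6 and Ier3 each time), and 5 to 10 when 1 mouse was left out. The counts were 10 without KO_chow replicate 4, 8 without KO_chow replicate 1 and 8 without WT_chow replicate 1. Without KO_chow replicate 4, 3849 of all genes were called. In KO_UDCA vs KO_chow, 7 were called, 3 in a fit to only these groups, 3 without KO_chow replicates 2 and 5, and 5 to 7 when 1 mouse was left out. For the interaction, 3 were called, and 1 to 5 when 1 mouse was left out, with 1 (Ier3) without KO_chow replicate 2, 5 without KO_chow replicate 4 and 2 without WT_chow replicate 4. The other comparisons gave 0 called members in every setting run. The number of all genes called in KO_chow vs WT_chow was 3295, 2008 in a fit to only these groups and 1089 without KO_chow replicates 2 and 5. In KO_UDCA vs KO_chow it was 2701, 1454 and 673. The cause was not tested. In KO_chow vs WT_chow, KO_UDCA vs KO_chow and the interaction, single results of the 10 genes kept their side of the threshold in 576 cases, gained a call in 19 and lost one in 32, and 0 changed direction. With the filter on dim genes, which kept 12905 genes and left out Fosl1, Fos (adjusted p = 0.0311), Jun (0.0379) and Myc (0.0485) were also called in KO_chow vs WT_chow, as was Fos with the pseudocount (0.0412). No paired analysis was possible because the replicate numbers follow the order of the records and pair no mice. Outside KO_chow, levels below the array median limit what can be said of Fosl1, and levels mostly below it limit what can be said of Fosb. Both genes were also below it in KO_chow replicates 1 and 4.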
